A study of Mus musculus with 2 samples.

Results

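The genes described here are 10 parts and targets of the JAK-STAT pathway as it runs downstream of the interleukin-3 (IL-3) receptor: Cish, Socs1, Socs2, Osm, Pim1, Pim2, Stat5a, Stat5b, Jak2 and Stat3. They were taken as a list of symbols, and each matched 1 of the 27998 gene identifiers in the deposited count tables. The cells were mouse primary leukaemia cells carrying the MLL-AF9 fusion oncoprotein and Cas9, a nuclease that cuts DNA where a single guide RNA (sgRNA) directs it, and they were cultured with 10 ng/ml mouse IL-3. In 1 library the sgRNA was aimed at the Jumonji domain of Jmjd1c, a histone demethylase family gene (Jumonji library), and in the other it targeted Renilla luciferase, a sequence that mice lack (Renilla library, the control). Whether a library came from 1 clone or from a mixed culture is not stated in the labels.

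IL-3 binds an alpha chain and a beta chain (Csf2rb, or the mouse-specific Csf2rb2). The receptor-bound kinase JAK2 then phosphorylates the beta chain and the transcription factors STAT5A and STAT5B, which enter the nucleus and bind a palindromic motif. Among the genes they induce are Cish, Socs1 and Socs2, whose proteins dampen the same receptors, the cytokine gene Osm, and the survival kinase genes Pim1 and Pim2. STAT3 is a related factor that answers mainly to the interleukin-6 family, to which oncostatin M (Osm) belongs. A transcript level measures none of the phosphorylation steps.

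The motif is shown first in the gene with the largest difference in level. RefSeq start-site windows (build GRCm38.p6, 250 bases before to 50 after each start) were found for 8 of the 10 genes, in 11 windows, and were searched on both strands for TTCNNNGAA, which is its own reverse complement. No window was found for Socs2 and Osm, so these genes were not searched. Of the 8 searched, Cish alone held a match, and it held 2, separated by 2 bases. The stretch below shows both in capitals, 5′ to 3′ on the plus strand, at chr9:107296654-107296683.
Cish: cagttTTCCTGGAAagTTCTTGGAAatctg
The first match begins on the RefSeq start base of Cish, and in GENCODE M21, whose gene model starts upstream, the stretch lies in exon 1 of Cish-201, in its UTR. Of all 32851 windows in the table, 8.30% held at least 1 match and 0.457% held at least 2. A match in 1 of the 11 windows of these genes is near the share of all windows. A match is a description of letters and not a measured binding site.

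UMIs (unique molecular identifiers, tags that mark single RNA molecules) were counted in 608 Renilla and 575 Jumonji cells, with medians of 23528 and 22123 UMIs per cell. No barcode was shared by the libraries. Jmjd1c had 2025 UMIs in the Renilla and 1435 in the Jumonji library, a log2 ratio of -0.33 (-0.42 to -0.23). Its 3′ tag does not show whether the gene was cut. As for the labelled cell type, all 5 promyelocyte markers listed (Mpo, Elane, Prtn3, Ctsg and Ms4a3) were detected in both libraries, at a summed 5221 and 1808 CPM (a gene's UMIs divided by all UMIs of the library, times 10 to the sixth power), while 5 of 7 lymphoid markers were at 0 in both. There was 1 library per condition, so no test between conditions was possible and none of the differences below has a replicate check. Intervals are exact 95% intervals of counting error only, and culture, guide and library preparation cannot be told apart. Fewer cells that express a gene and less RNA per cell can both lower a library's sum, so shares of cells are given separately. In sparse counts a share mostly follows the mean, so it does not tell these apart.

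A 1.5-fold size was used throughout to list a difference. By it, 5 of the 10 genes stood higher in the Jumonji library and 0 stood lower. The same size was passed upward by 11.0% and downward by 9.04% of all 9922 genes with 50 or more UMIs over both libraries. The median log2 ratio, Jumonji over Renilla, was 0.55 over the 10 genes and -0.06 over all 9922. All 10 genes passed the minimum of 50 UMIs. The 10 genes were chosen with earlier results of these data known, so their excess over all genes is no independent support.

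**Figure D1:**
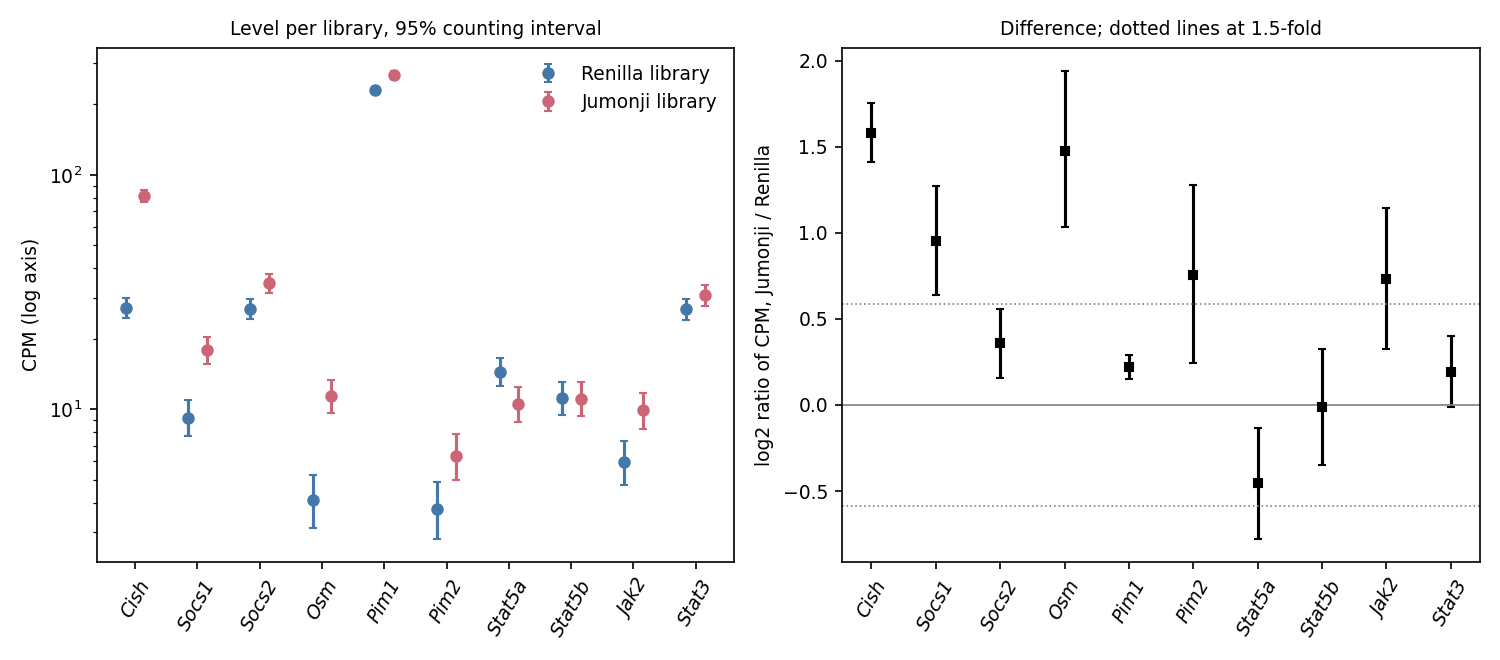
Level of each gene in CPM on a log axis (left; circles are the Renilla and Jumonji libraries) and log2 ratio of CPM, Jumonji over Renilla (right), both with 95% counting intervals. Cish, Socs1, Osm, Pim2 and Jak2 lie above the upper dotted line of a 1.5-fold difference, and Stat5a is the lowest at -0.45.

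The feedback inhibitors differed among themselves. Cish (chromosome 9, 107296026 to 107302784, plus strand, mm10), which encodes CIS, an SH2 protein that binds activated cytokine receptors, had a Renilla count of 391 UMIs, or 27.1 CPM (24.5 to 29.9). Its Jumonji count was 1040 UMIs or 81.2 CPM (76.3 to 86.3), which is 2.99-fold higher (2.66 to 3.37). Socs1 (chromosome 16, 10782240 to 10785536, minus strand), whose protein inhibits JAK kinases directly, was at 9.22 CPM (7.72 to 10.9) in the Renilla and 17.9 CPM (15.6 to 20.3) in the Jumonji library. This is 1.94-fold higher (1.56 to 2.42), and the 2 intervals of the level do not overlap. Socs2 (chromosome 10, 95385362 to 95417180, minus strand), an SH2 protein best known for restraining growth hormone signalling, was at 26.8 CPM (24.2 to 29.7) against 34.4 CPM (31.3 to 37.8). Its ratio of 1.28 (1.12 to 1.47) stayed inside the 1.5-fold limit, so the Cish and Socs2 levels, which were alike in the Renilla library, lay apart in the Jumonji library.

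The cytokine gene and 1 of the kinase genes were higher. Osm (chromosome 11, 4236420 to 4241026, plus strand), a secreted ligand, was at 4.09 CPM (3.11 to 5.28) from 59 Renilla UMIs and at 11.4 CPM (9.62 to 13.4) from 146 Jumonji UMIs. Its ratio was 2.79 (2.05 to 3.84). Pim2 (chromosome X, 7878262 to 7883432, plus strand) was scarce, with 54 Renilla UMIs, 3.75 CPM (2.81 to 4.89), and 81 Jumonji UMIs, 6.32 CPM (5.02 to 7.86), a ratio of 1.69 (1.18 to 2.43). Pim1 (chromosome 17, 29490753 to 29496112, plus strand) had the most UMIs of the 10 genes, 3307 in the Renilla and 3429 in the Jumonji library. Its level of 229 CPM (222 to 237) against 268 CPM (259 to 277) gave a ratio of only 1.17 (1.11 to 1.22), outside counting error but small. Both encode serine/threonine kinases with shared substrates, and the intervals of their ratios overlap, so the scarcer gene's larger ratio is not separated from that of Pim1.

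The signalling proteins' own genes did not all differ in 1 direction. Jak2 (chromosome 19, 29251828 to 29313080, plus strand) was at 5.96 CPM (4.77 to 7.37) from 86 UMIs against 9.91 CPM (8.27 to 11.8) from 127 UMIs, a ratio of 1.66 (1.25 to 2.21). Stat5a (chromosome 11, 100859351 to 100885169, plus strand) went the other way, at 14.4 CPM (12.5 to 16.5) in the Renilla and 10.5 CPM (8.84 to 12.5) in the Jumonji library. This is 1.37-fold lower, and the log2 ratio was -0.45 (-0.78 to -0.13). Its near-duplicate Stat5b (chromosome 11, 100780731 to 100850724, minus strand), 8626 bases away, was at 11.2 CPM (9.51 to 13.0) and 11.1 CPM (9.34 to 13.1), with a log2 ratio of -0.01 (-0.35 to 0.32). Stat3 (chromosome 11, 100885098 to 100939540, minus strand) was at 26.8 CPM (24.2 to 29.6) and 30.6 CPM (27.6 to 33.8), with a log2 ratio of 0.19 (-0.01 to 0.40). Neither Stat5b nor Stat3 differed beyond counting error.

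Some of these genes share sequence or position with others. Stat5a and Stat5b are close paralogues, and the annotated Stat5a and Stat3 models overlap by 72 bases at their 3′ ends on opposite strands. Cish overlaps the antisense gene Gm17041 and Pim1 overlaps the antisense gene Gm26885. Cish also overlaps Gm17040, a transcribed processed pseudogene on the minus strand, whose UMIs are not given here. Gm17041 had 1 UMI in the Renilla and 0 in the Jumonji library, and Gm26885 had 2 in each. Whether the counting used strand is not given in the sources used here, so the split of UMIs within these pairs is uncertain.

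Detection per cell was compared after every cell had been thinned at random to 10000 UMIs, which left 579 Renilla and 520 Jumonji cells and removed 29 and 55 shallower ones. In the Jumonji library the loss fell largely on cluster 6, described below, where several of the 10 genes were high. Of its 104 Jumonji cells, thinning kept 57 with a Csf2rb UMI and 11 without. All results in thinned cells therefore hold fewer of these cells than the library sums do. Cish had at least 1 UMI in 127 of 579 Renilla cells, or 21.9% (18.6% to 25.5%), and in 266 of 520 Jumonji cells, or 51.2% (46.8% to 55.5%). Without thinning the shares were 41.3% and 77.6%. Cells with several Cish UMIs were also more frequent, with 3 Renilla and 47 Jumonji cells holding 3 or more. The mean among cells with a Cish UMI was 1.17 against 1.62 thinned UMIs. Counting alone at the overall means gives shares of 22.7% and 56.4%. Share and mean among positive cells both rise with the overall mean, so they are not separate findings.

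For Socs1, Osm and Pim2 the shares of cells with a UMI lay near those that counting alone gives at their means. For Socs1 these were 9.84% and 17.5%. Socs1 was seen in 9.67% (7.39% to 12.4%) of thinned Renilla and 16.5% (13.4% to 20.02%) of thinned Jumonji cells (17.9% and 30.6% unthinned). Osm was seen in 5.01% (3.38% to 7.11%) and 11.7% (9.09% to 14.8%), or 8.88% and 20.7% unthinned. Pim2 was seen in 2.25% (1.20% to 3.81%) and 6.35% (4.41% to 8.80%), or 8.06% and 11.8% unthinned. For Socs2 the thinned shares of 21.6% (18.3% to 25.2%) and 27.5% (23.7% to 31.6%) had overlapping intervals, as did those of Jak2, 6.22% (4.39% to 8.50%) and 8.85% (6.55% to 11.6%). Pim1 was seen in 82.9% and 85.4% of thinned cells, Stat3 in 21.2% and 24.8%, Stat5a in 13.6% and 11.3%, and Stat5b in 10.5% and 10.96%. Free RNA in droplets adds UMIs to cells that do not express a gene. No cell type that should lack these genes was present to measure it, so its part in these shares was not tested.

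**Figure D2:**
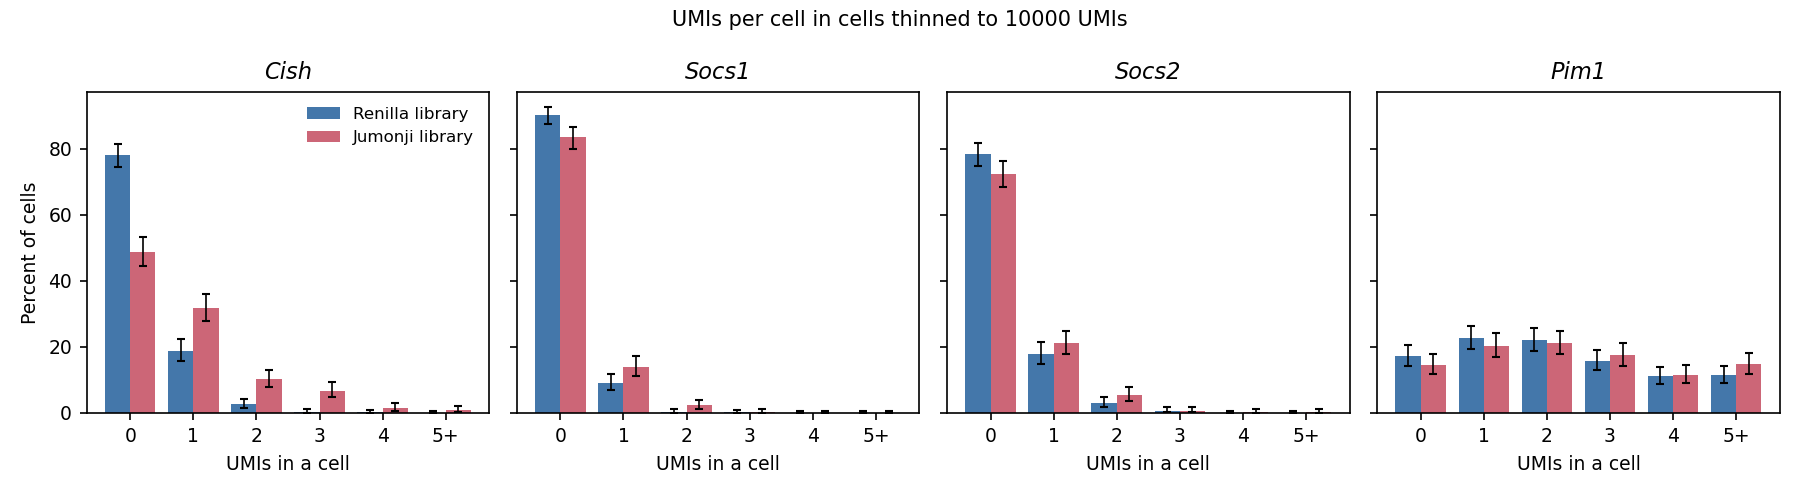
Percent of cells (vertical axis, with 95% Clopper-Pearson intervals) by the number of UMIs in the cell (horizontal axis) for Cish, Socs1, Socs2 and Pim1, in cells thinned to 10000 UMIs. The Cish bar at 0 UMIs stands at 78.1% of Renilla and 48.8% of Jumonji cells, while at 0 UMIs the Pim1 bars, 17.1% and 14.6%, have overlapping intervals.

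How unevenly cells carried each transcript was described by the variance of thinned counts over their mean, which is 1 when cells differ by counting alone. This measure grows with the mean, so it does not rank genes of different abundance. Pim1, with a mean of 2.29 and 2.56 thinned UMIs per cell, was at 1.61 and 1.71. Cish was at 1.11 in the Renilla and 1.38 in the Jumonji library, where its mean was also higher, and Socs2 at 1.13 and 1.27. Jak2, at a mean of only 0.067 and 0.10, was at 1.24 and 1.17. Stat5a, at 0.996 and 0.983, and Osm, at 1.02 and 0.973, were near 1. At means this low the measure can stay near 1 where cells do differ. At full depth Osm was at 39.7 CPM in Jumonji cells of cluster 6 and 8.17 CPM in the others. Csf2rb itself was at 1.05 and 1.04. By this measure little variation between cells of a library was seen in the receptor gene beyond counting, which limits what a comparison across cells can show. Its level did differ between cluster 6 and the other cells, as given below.

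Csf2rb, the shared receptor chain, stood at 35.2 CPM in the Renilla and 117 CPM in the Jumonji library. At the matched depth it had a UMI in 179 of 579 Renilla cells and 349 of 520 Jumonji cells. At this depth Cish showed no clear relation with it from cell to cell. In the Renilla library Cish was at 29.1 CPM (21.7 to 38.1) in cells with a Csf2rb UMI and 24.25 CPM (19.7 to 29.6) in cells without, a log2 ratio of 0.26 (-0.25 to 0.76). Among Jumonji cells it was at 84.8 CPM (75.4 to 95.05) and 79.5 CPM (66.7 to 94.1), a log2 ratio of 0.09 (-0.20 to 0.40). Neither ratio differed from 0 beyond counting error, and the Jumonji value was -0.20 without the cells of cluster 6, described below.

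The difference in Cish between the libraries was present at each number of Csf2rb UMIs. Among cells with no Csf2rb UMI, Cish was at 24.25 CPM in 400 Renilla cells and 79.5 CPM in 171 Jumonji cells, a log2 ratio of 1.71 (1.33 to 2.10). Among cells with 1 Csf2rb UMI it was at 28.9 and 84.4 CPM, a ratio of 1.55 (1.05 to 2.07). Among cells with 2 or more it was at 30 CPM from 9 UMIs and 85.3 CPM from 139 UMIs, a ratio of 1.51 (0.54 to 2.67). A thinned count of 0 does not show that a cell lacks Csf2rb, since at full depth 90.6% of Jumonji cells had a UMI of it.

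**Figure D3:**
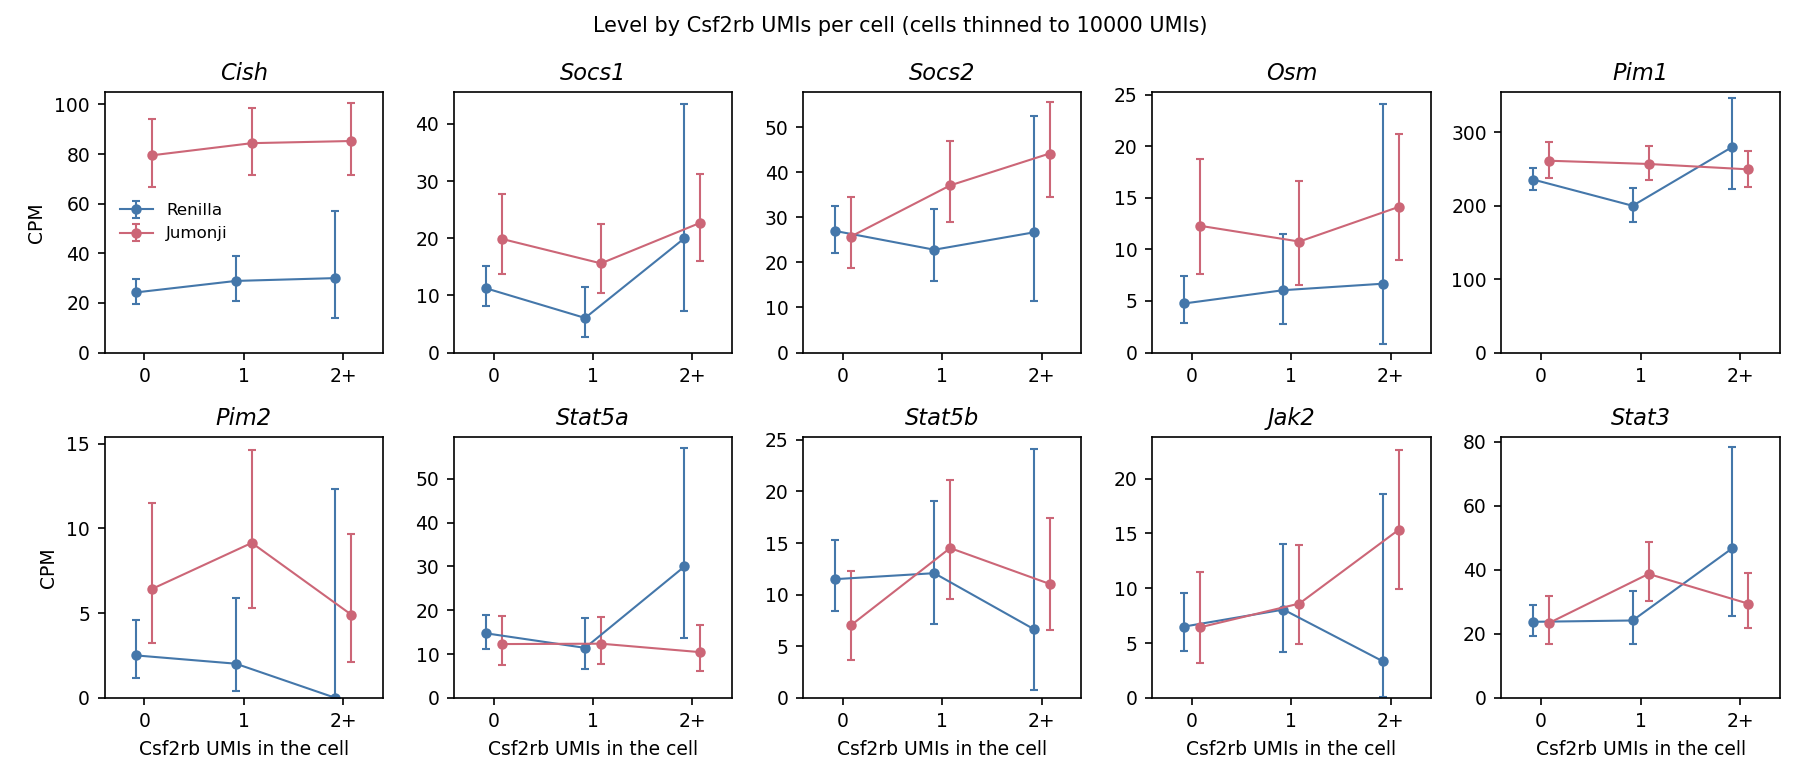
CPM of each of the 10 genes (vertical axes, starting at 0, with 95% counting intervals) in cells with 0, 1 or 2 or more Csf2rb UMIs, by library, in cells thinned to 10000 UMIs. The Cish lines of the libraries run nearly level and apart, at 79.5 to 85.3 CPM in the Jumonji and 24.25 to 30 CPM in the Renilla library.

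The other genes gave no steady relation with Csf2rb either. In the Renilla library none of the 7 genes with at least 50 thinned UMIs was 1.5-fold higher in cells with a Csf2rb UMI, beside 1.96% of all 7208 genes. In the Jumonji library 3 of 9 were, beside 3.95% of all 6888 genes: Socs2 at a log2 ratio of 0.65 (0.15 to 1.17), Stat5b at 0.88 (-0.07 to 1.93) and Jak2 at 0.87 (-0.12 to 1.98). These values depended on the depth. In cells thinned to 5000 UMIs the log2 ratios of Socs2, Stat5b and Jak2 were -0.0094, -0.21 and -0.20, and Socs1, at 0.91, was the 1 gene that passed. On unthinned counts they were 0.21, 0.01 and 1.04, and Jak2 was the 1 that passed. Cells of cluster 6 made up 16.3% of the thinned Jumonji cells with a Csf2rb UMI and 6.43% of those without. With them left out, Stat5b (0.83) and Jak2 (0.67) passed the size and the minimum and Socs2 (0.30) did not. The share of all genes was not computed for these alternatives.

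Correlations across thinned cells were close to 0. Pearson's r of log(1 + thinned UMIs) with Csf2rb ran from -0.03 (Pim2) to 0.06 (Stat3) over 579 Renilla cells and from -0.03 (Pim1) to 0.10 (Socs2) over 520 Jumonji cells. For Cish it was 0.05 and 0.0055, with Spearman's rho of 0.05 and 0.0065. The middle 95% of all genes tested lay between -0.08 and 0.08 in the Renilla and between -0.11 and 0.10 in the Jumonji library. On unthinned counts, where depth differs between cells, r of Cish with Csf2rb was 0.08 in the Renilla and 0.11 in the Jumonji library. Csf2rb2, the neighbouring near-identical gene, whose UMIs may be split uncertainly with it, reached 0.16 among Renilla and 0.09 among Jumonji cells. Cells of a library share culture, preparation and sequencing, and values this small in sparse counts are no finding.

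Among the 45 pairs of the 10 genes the median r was 0.0049 in the Renilla and 0.02 in the Jumonji library. The pairs above 0.1 in the Renilla library were Cish with Osm, at 0.16, and Cish with Pim1, at 0.10. In the Jumonji library there were 5, namely Socs1 with Osm (0.13), Socs2 with Osm (0.13), Cish with Osm (0.11), Socs2 with Stat5b (0.11) and Cish with Pim1 (0.10). The share of all gene pairs above 0.1 was not computed, so these counts have no background and are no finding. The shared cells below are those of the highest pair of each library. Cish and Osm shared 14 Renilla cells where independence gives 6.36, and 36 Jumonji cells where it gives 31.2. Socs1 and Osm shared 19 Jumonji cells where independence gives 10.1, and 3 Renilla cells where it gives 2.80. For the 3 genes with the most UMIs, the genes most like them were those whose lower r of the 2 libraries was highest among 1321 genes. For Cish these were Ptpn18 (0.13 and 0.13 in the Renilla and Jumonji libraries), Fth1 (0.13 and 0.26), Prr13 (0.13 and 0.25), Bscl2 (0.14 and 0.13) and AB124611 (0.12 and 0.23). For Pim1 they were Id1 (0.14 and 0.22), Kdelr2, Nfe2, Top2a and Xist, and for Socs2 they were Npc2 (0.12 and 0.11), Cd52, Ccdc12, H2-K1 and Fcer1g. Each list is the top of a ranking on these same data. The spread of r over the 1321 genes is not given here, so the lists are a description only.

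Cells of both libraries were clustered together without these 10 genes, without the pathway lists below, and without genes that differed between the libraries. Of the 7 clusters, numbered here because none had 3 markers of a type among its leading genes, cluster 6 stood out for several of the 10 genes. It held 15 of 608 Renilla cells (2.47%) and 104 of 575 Jumonji cells (18.1%), was shallower than the others (median 12451 UMIs) and was led by Mmp8, Ctss, Ccl9 and Wfdc17. Cluster 6 was set apart by rule, as the cluster with the highest summed level of 15 monocyte and macrophage markers. That level was therefore fixed by the choice and is no separate finding. It was 1295 CPM in the Renilla and 2762 CPM in the Jumonji library, against 583 and 811 CPM outside the cluster. Within that list 1 gene was at 0 in the Renilla and 2 in the Jumonji library, C1qa in both. Neutrophil markers also stood higher in the Jumonji library. The 11 listed summed to 155 CPM in the Renilla and 937 CPM in the Jumonji cells, and to 157 and 917 CPM outside cluster 6, with Ltf and Retnlg at 0 in both. Within the Jumonji library, cluster 6 also held more of the 7 eosinophil markers (186 CPM, 70.2 CPM outside it) and of the 7 dendritic markers (84.1 and 2.17 CPM). Ccr3 of the first list and Siglech of the second were at 0 in both libraries. Mast cell and basophil (55.8 and 31.5 CPM), megakaryocyte (36.7 and 14.9) and stromal markers (27.5 and 19.2) were higher there too. Promyelocyte (537 and 1953), lymphoid (7.64 and 30.4) and erythroid markers (0.764 and 2.26) were lower. In the Renilla library neutrophil (76.2 and 157) and eosinophil markers (24.1 and 35.6) were lower in cluster 6. The part of these cells in the differences between the libraries was measured for cluster 6 by leaving it out and was otherwise not tested.

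Cish was at 190 CPM (167 to 215) in the Jumonji cells of cluster 6 and at 68.8 CPM (64.1 to 73.7) in the other Jumonji cells. In the Renilla library it was at 64.2 CPM (36.7 to 104) from 16 UMIs in cluster 6 and at 26.5 CPM (23.9 to 29.3) elsewhere. Osm was at 39.7 CPM (29.7 to 52.1) in the Jumonji cells of cluster 6 and 8.17 CPM (6.60 to 10.0) in the other Jumonji cells, Socs1 at 39.7 CPM (29.7 to 52.1) and 15.4 CPM (13.2 to 17.8), and Socs2 at 68.8 CPM (55.3 to 84.6) and 30.5 CPM (27.4 to 33.9). Pim1 differed less, at 307 CPM (278 to 339) and 263 CPM (254 to 273). The inhibitor genes and Osm were thus high in the same cluster, whose share of cells was larger in the Jumonji library. Csf2rb was higher there too, at 167 CPM (145 to 190) against 111 CPM (105 to 117) in the other Jumonji cells. In the Renilla library Csf2rb was at 92.2 CPM (58.5 to 138) in cluster 6 and 34.2 CPM (31.2 to 37.3) elsewhere.

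With cluster 6 left out, the log2 ratio of Cish between the libraries was 1.38 (1.20 to 1.56), that of Osm 1.16 (0.65 to 1.67), that of Socs1 0.79 (0.45 to 1.13) and that of Jak2 0.69 (0.27 to 1.12). Pim2, at 0.57 (0.03 to 1.12), was then under the 1.5-fold size, and Socs2, at 0.21 (-0.0049 to 0.42), no longer differed beyond counting error. Cish was higher in the Jumonji cells of each of the 7 clusters, by log2 ratios of 0.74 to 1.86, and outside counting error in 6. Osm was higher in 6 of the 6 clusters with counts in both libraries, but outside counting error in 1. Socs1 was above 0 in 6 of 7 clusters and Jak2 in 5 of 7, each outside counting error in 1, and with clusters weighted equally Socs1 was at 0.38, under the 1.5-fold size. Socs2 was above 0 in 3 clusters and below 0 in 4, from -0.12 to 0.40, and outside counting error in none. Stat5a was below 0 in 4 of 6 clusters.

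**Figure D4:**
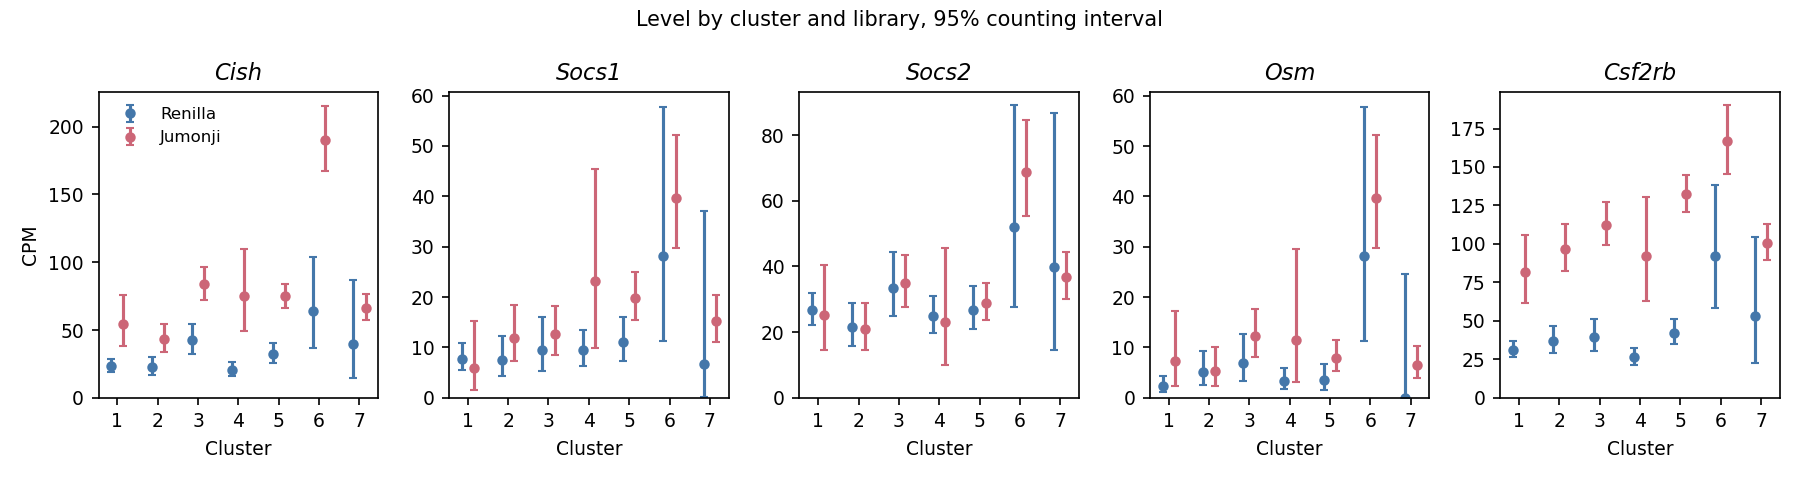
CPM of Cish, Socs1, Socs2, Osm and Csf2rb (vertical axes, starting at 0, with 95% counting intervals) in clusters 1 to 7, by library. Cish is higher in the Jumonji cells of every cluster and peaks at 190 CPM in cluster 6, while the Socs2 intervals of the libraries overlap in each cluster.

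Cell cycle phase was called from S and G2/M genes in thinned cells, and it too differed between the libraries, with G1 calls for 73 of 579 Renilla and 143 of 520 Jumonji cells. Cish was higher in cells called G1 in both libraries, at 45.2 CPM against 22.4 (S) and 23.4 (G2/M) in the Renilla library and at 134 CPM against 69.8 and 59.0 in the Jumonji library. The log2 ratio between the libraries was 1.56 (1.02 to 2.14) in G1, 1.64 (1.16 to 2.13) in S and 1.34 (0.88 to 1.80) in G2/M cells. Osm was at 17.8 CPM in G1 and 2.90 CPM in S phase cells of the Renilla library, from 13 and 7 UMIs, and at 21.7 and 8.14 CPM in the Jumonji library. Its ratio was 0.28 (-0.69 to 1.34) in G1 cells and 1.49 (0.08 to 3.04) in S phase cells. The phase calls read free RNA as well, whose part was not tested.

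The rest of the pathway was described from 8 lists. Of 62 listed genes other than the 10, 44 had 50 or more UMIs. Of these, 7 passed the 1.5-fold size upward in the Jumonji library and 0 downward, beside 11.0% and 9.04% of all genes, a share upward near that background, with a median log2 ratio of 0.18. Among the 4 JAK kinases Jak2 alone was listed as higher, beside Jak1 at 0.35 (0.19 to 0.51), Tyk2 at 0.13 (-0.20 to 0.45) and Jak3 at -0.0021 (-0.55 to 0.55). No STAT gene of the 6 measured was 1.5-fold apart. In the SOCS family of 7 measured genes Cish and Socs1 were higher, while Socs7 was at -0.56 (-0.97 to -0.15) and Socs4, Socs5 and Socs6 differed by less than counting error. Socs3, a feedback inhibitor that answers mainly to STAT3, had 14 UMIs against 21 and was under the minimum.

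Genes known to be induced by STAT5 were mixed. Of the 13 measured, 5 were at least 1.5-fold higher, beside 11.0% of all genes. Since 6 of the 13 are among the 10 genes above, this count largely repeats theirs and is no separate support. Of the 5 higher genes, 4 are among the 10 (Cish, Socs1, Osm and Pim2). The other is Cdkn1a, the cell cycle inhibitor p21, at a log2 ratio of 0.75 (0.64 to 0.86). None was 1.5-fold lower, and the median was 0.36. The survival genes Bcl2l1 and Mcl1 were at 0.33 (0.11 to 0.56) and 0.04 (-0.13 to 0.21). The cyclin genes Ccnd2 and Ccnd3 were at 0.20 (0.10 to 0.30) and 0.50 (0.43 to 0.57). Myc, at -0.21 (-0.38 to -0.04), and Id1, at -0.41 (-0.51 to -0.31), lay on the other side of 0.

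**Figure D5:**
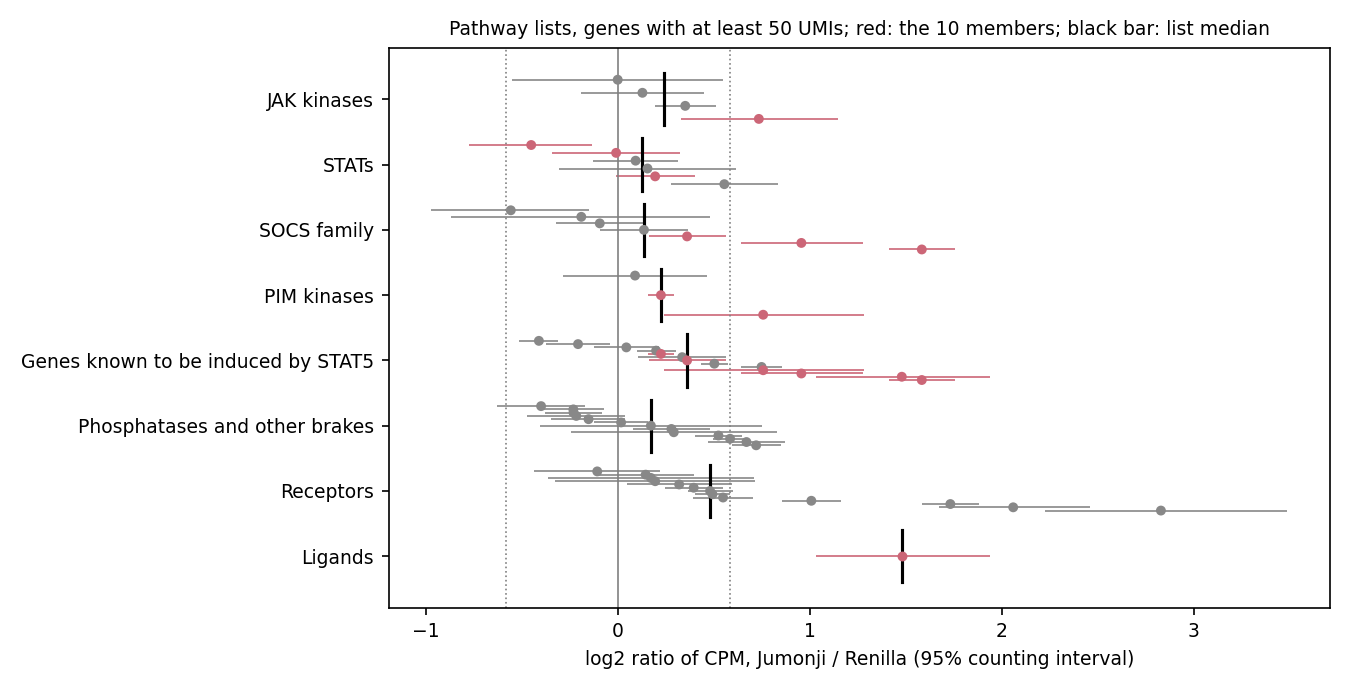
Log2 ratio of CPM, Jumonji over Renilla (horizontal axis, points with 95% counting intervals), for each gene with at least 50 UMIs in 8 pathway lists. Red points are the 10 genes, black bars are list medians, and no point lies left of the lower 1.5-fold line.

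Among receptor genes 3 had larger ratios than any of the 10. Csf2rb was at a log2 ratio of 1.73 (1.58 to 1.88), Csf2rb2 at 2.06 (1.67 to 2.46), Csf1r, which encodes the M-CSF receptor of monocytes and macrophages, at 2.83 (2.23 to 3.48) and Ifnar2, a type I interferon receptor chain, at 1.01 (0.85 to 1.16). These 4 were the receptor genes of 13 measured that passed the 1.5-fold size, beside 11.0% of all genes, and none was that much lower, beside 9.04%. Of the receptor chains for oncostatin M, Osmr had no UMI in either library and Il6st was under the minimum. Of 13 phosphatases and other brakes on the pathway, 2 were higher, a share near the 11.0% of all genes. These were Ptprc (CD45, a receptor phosphatase), at 0.72 (0.59 to 0.85), and Sh2b3 (LNK, an adaptor that restrains JAK2), at 0.67 (0.47 to 0.87). Ptpn6 (the phosphatase SHP-1), at 0.58 (0.49 to 0.67), lay just under the limit. Osm was the 1 ligand gene of 8 with enough UMIs, and Il3 and Csf2 had no UMI in either library.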

How the data were processed

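The deposited values are raw UMI counts per gene and cell barcode, made with the 10x Chromium 3′ version 2 chemistry per the labels' protocols, and with Cell Ranger 1.3.1 on mm10 per the submitters' processing notes. Which annotation and cell-calling rule were used is not given in the sources used here. Barcodes needed 500 genes and no more than 10% mitochondrial UMIs (608 of 651 Renilla, 575 of 652 Jumonji). Scrublet marked 10 and 4 doublets, which were kept. Totals were 14418743 and 12809661 UMIs.

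UMIs were summed per library and divided by the total (CPM). Ratios carry exact conditional binomial intervals, sums exact Poisson intervals and shares Clopper-Pearson intervals. In a simulation of the Jumonji against Renilla comparison (9932 genes), all 200 genes given a 3-fold change were listed, and 95.7% of intervals held the true ratio. The simulated sums were Poisson counts, which is also what the intervals assume. The simulation thus checked the calculation only, and not the spread between cells or between libraries. Cells were clustered with scanpy 1.11.5 (2000 variable genes, 30 components, 15 neighbours, resolution 0.6). Alternative scalings used edgeR 4.0.16 and DESeq2 1.42.0. Named genes were the 10 listed, Jmjd1c, Csf2rb, Csf2rb2, pathway genes at least 1.5-fold apart, and the genes most like the 3 with the most UMIs. Others (Jak1, Jak3, Tyk2, Socs3 to Socs7, Bcl2l1, Mcl1, Ccnd2, Ccnd3, Myc, Id1, Ptpn6, Osmr, Il6st, Il3 and Csf2) were picked after their values were seen. Members and lists were chosen with earlier results of these data known.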

Additional observations from a re-analysis of the deposited data

Results flagged for a closer look

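Barcodes above 10% mitochondrial UMIs, 43 in the Renilla and 77 in the Jumonji library, were left out of the comparisons above and entered only the alternative that used all deposited barcodes. In them 4 of the 10 genes were above the level of the control library beyond counting error. The share of all genes that did so in these barcodes was not computed, so this count has no background to be read against. Cish was at 111 CPM (81.9 to 148) in the Jumonji and 19.8 CPM (6.43 to 46.2) in the Renilla barcodes, from 47 and 5 UMIs. Pim1 was at 505 CPM (439 to 578) and 356 CPM (287 to 438). Socs2, at 52.2 CPM from 22 UMIs, and Osm, at 40.3 CPM from 17 UMIs, each had 1 UMI in the Renilla barcodes.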

How the results depend on the processing

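The 5 genes listed as higher in the Jumonji library numbered between 3 and 5 under the alternatives tried. Of all genes, 9.76% (clusters weighted equally) to 13.3% (equal weight per cell) passed upward under those that changed the ratios. The count was 3 with clusters weighted equally (those with 20 or more cells of each library), where Cish had a log2 ratio of 1.09, Osm 0.92, Jak2 0.92, Pim2 0.51 and Socs1 0.38. It was 4 in thinned cells, without cluster 6, at a minimum of 200 UMIs, and in thinned cells without a Csf2rb UMI, and 5 under the others. In thinned cells without a Csf2rb UMI, an alternative chosen after seeing the data, 1 gene (Stat5b, at -0.71 from 12 Jumonji UMIs) was 1.5-fold lower, the median over the 10 genes was 0.067, and Jak2 turned to -0.015. In that setting 15.1% of all genes were 1.5-fold lower and 13.2% higher, and their median was -0.06. The 1 lower gene of 10 is thus no excess over all genes. Pim2 was at 1.62 in thinned cells, from 13 and 36 UMIs. In the Jumonji library 1 gene was 1.5-fold higher in cells with a Csf2rb UMI on unthinned counts (Jak2, at 1.04) and 1 at 5000 UMIs per cell (Socs1, at 0.91), in place of 3. At 5000 UMIs per cell Socs2 was at -0.0094, Stat5b at -0.21 and Jak2 at -0.20. With the stricter cell filter 4 passed, Stat3 (0.60) being added. In the Renilla library 2 passed at 5000 UMIs per cell, in place of 0. For these splits by Csf2rb the share of all genes was computed in the main setting only. The cause was not tested. TMM and median-of-ratios scaling moved the median of all genes by 0.05 and 0.04. No paired analysis was possible because each condition had 1 library. Genes with under 100 UMIs in a library, such as Pim2, Osm and Jak2, are limited by depth.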
